A study of Homo sapiens with 6 samples.

Results

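The phagocyte NADPH oxidase, or NOX2 complex, was followed through 7 genes that encode its membrane, cytosolic and Rac subunits. The genes CYBB, CYBA, CYBC1, NCF1, NCF4, RAC1 and RAC2 were chosen by their known roles, with earlier results of these data known. They were found by symbol, and all 7 were among the 24960 genes of the count table. RNA came from K562, an established chronic myeloid leukemia (CML) cell line with erythroid features, in a control group of 3 libraries and a hyperoside group of 3 libraries. Hyperoside is a plant flavonol glycoside, a galactoside of quercetin, and was given at 2 mM. The labels give no other difference between the groups. How long the cells were exposed before RNA extraction is not given in the sources used here, and no source states that the replicates were separate cultures, so p-values measure the spread between these libraries.

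NOX2 moves electrons from NADPH inside the cell across the membrane to oxygen and thereby makes superoxide, the starting point of the oxidative burst of neutrophils, monocytes and eosinophils. The catalytic subunit gp91-phox (CYBB) and its partner p22-phox (CYBA) form flavocytochrome b558 in the membrane, and EROS (CYBC1) is a chaperone needed for this pair to be made. On activation, cytosolic subunits, among them p47-phox (NCF1) and p40-phox (NCF4), move from the cytosol to the membrane with a GTP-bound Rac protein, RAC2 being the blood cell form and RAC1 the form found in most cells. A burst needs the catalytic core, the cytosolic subunits and Rac together. Transcript levels say which of these parts the cells could make, and they do not measure protein or superoxide.

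Library totals ran from 35613283 to 36754725 counts, and 15095 genes passed the filter on low counts and were tested, all 7 subunit genes among them. The erythroid identity of the line was present in all libraries: the 7 erythroid markers HBG1, HBG2, HBZ, HBE1, GATA1, KLF1 and ALAS2 summed to 4951 to 6424 normalized CPM (counts scaled to a common library size) in control libraries and 3706 to 4474 CPM in hyperoside libraries. The neutrophil granule genes ELANE and MPO had at most 10 counts in any library.

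The subunits spanned about 3 orders of magnitude. Levels were compared between genes in FPKM, which are counts scaled to gene length and library total. The order of the mean FPKM in both groups was RAC1, RAC2, CYBA, CYBC1, CYBB, NCF4 and NCF1, and no neighbours in this order overlapped within either group. The control means ran from 139.4 FPKM for RAC1 down to 0.137 FPKM for NCF1, and the hyperoside means from 123.2 FPKM down to 0.419 FPKM. The Rac genes, CYBA and CYBC1 were thus well expressed in both groups, CYBB was low without hyperoside, and the cytosolic subunits NCF4 and NCF1 were at the bottom of the range in both groups. The position of CYBA depended on the gene length used. The deposited values divide CYBA counts by 2564 bases, whereas its longest coding transcript in GENCODE 29 has 1415 bases. With the transcript length the control mean of CYBA was 106.7 against 97.04 for RAC2, so that the order of these genes turned in the control group. With hyperoside these means were 96.1 and 99.6.

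**Figure D1:**
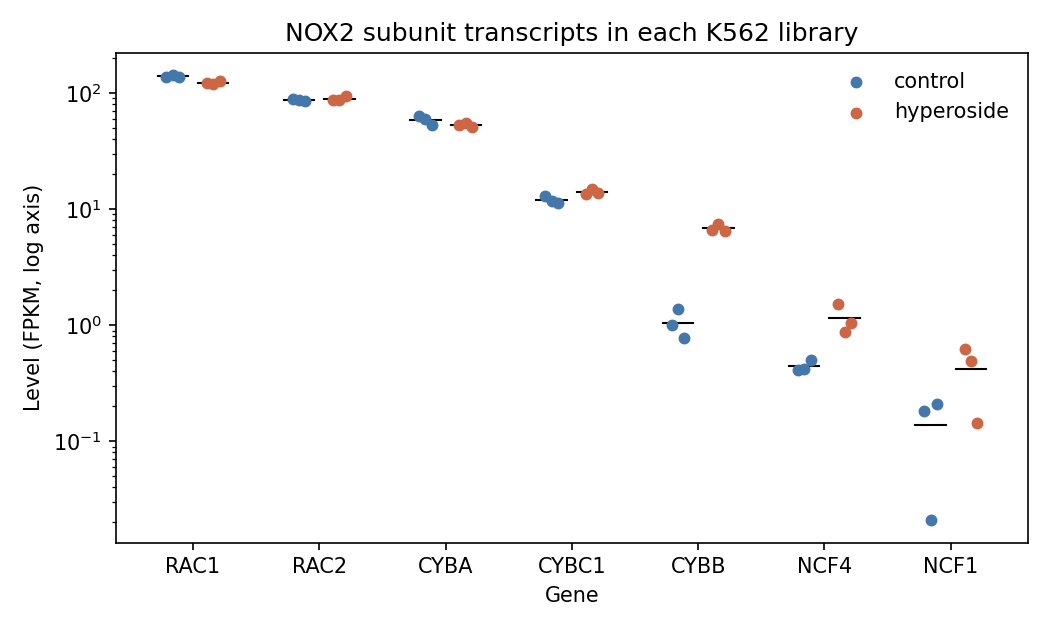
Level of each NOX2 subunit transcript in every library, in FPKM on a log axis, with control libraries in blue, hyperoside libraries in orange and a black line at each group mean. CYBB lies between 0.781 and 1.38 FPKM in control libraries and between 6.44 and 7.39 FPKM in hyperoside libraries, while NCF1 stays under 0.63 FPKM in all 6 libraries.

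CYBB, which encodes the electron-transferring catalytic subunit gp91-phox, lies at chrX:37780011-37813461 of GRCh38 (plus strand). The control libraries held 158, 210 and 119 CYBB counts and the hyperoside libraries 1016, 1141 and 986, always given here in the order of replicates 1, 2 and 3. The lowest hyperoside library was thus well above the highest control library. Its level rose from 1.06 ± 0.302 to 6.82 ± 0.502 FPKM (SD, n = 3 libraries each). The log2 fold change was 2.64 (95% interval 2.31 to 2.98), with an adjusted p of 9.53e-10 (edgeR quasi-likelihood F-test, Benjamini-Hochberg adjusted over all tested genes). By p, CYBB ranked 43 among the 15095 tested genes. No stretch of 75 bases in its longest coding transcript occurred in transcripts of another gene in GENCODE 29.

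The 250 bases before the annotated start were taken from RefSeq (GRCh38.p14) for 4 of the 7 members, CYBB, CYBA, CYBC1 and NCF1. They were searched on both strands for GAGGAA, the core bound by PU.1 and other ETS factors, which are known to act on phagocyte oxidase genes, for GATAA, the core of GATA factor sites, and for CCAAT. The 3 windows printed here are those of both membrane subunits, of which 1 rose and 1 did not pass the test, and of the organizer NCF1, with GAGGAA or its reverse complement in capitals. They are CYBB (chrX:37779809-37780058, plus strand), CYBA (chr16:88651054-88651303, minus strand) and NCF1 (chr7:74773761-74774010, plus strand), each written 5′ to 3′ along the gene.
CYBB: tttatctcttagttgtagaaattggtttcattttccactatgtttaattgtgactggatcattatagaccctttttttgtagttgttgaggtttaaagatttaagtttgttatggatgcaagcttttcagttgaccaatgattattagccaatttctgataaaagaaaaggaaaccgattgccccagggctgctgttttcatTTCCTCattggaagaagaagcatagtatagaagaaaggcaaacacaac
CYBA: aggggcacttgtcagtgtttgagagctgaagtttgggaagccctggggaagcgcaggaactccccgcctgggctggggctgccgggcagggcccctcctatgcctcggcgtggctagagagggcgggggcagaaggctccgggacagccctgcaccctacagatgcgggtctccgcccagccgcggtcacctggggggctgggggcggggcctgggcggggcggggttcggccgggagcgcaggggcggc
NCF1: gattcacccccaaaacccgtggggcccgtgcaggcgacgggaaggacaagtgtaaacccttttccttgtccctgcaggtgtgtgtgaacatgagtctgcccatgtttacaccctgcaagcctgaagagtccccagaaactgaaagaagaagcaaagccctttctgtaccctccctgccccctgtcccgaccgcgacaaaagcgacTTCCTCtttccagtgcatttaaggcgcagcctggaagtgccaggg
The CYBB window held GAGGAA once, on the opposite strand, from base 48 to base 43 before the RefSeq start. The NCF1 window held it once, likewise on the opposite strand, from base 45 to base 40. By the GENCODE limits both GAGGAA matches lay inside their genes, that of CYBB at the first bases of the gene. The windows of CYBA and CYBC1 held none of the 3 motifs. CYBB also held GATAA at 2 places and CCAAT at 4 places, one of which, on the opposite strand from base 42 to base 38, directly adjoins its GAGGAA. Among all 35116 RefSeq windows of this length, 23.6% held GAGGAA, 20.4% held GATAA and 32.0% held CCAAT, so single matches of this kind are common. The base composition differed as well, with 34.0% G and C in the CYBB window and 73.6% in the CYBA window. A match describes the letters in the window and not binding.

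CYBA, which encodes p22-phox, the partner that stabilizes gp91-phox and also serves other NOX enzymes, lies at chr16:88643283-88651152 (minus strand). Its level was 63.4, 59.5 and 53.7 FPKM without hyperoside and 52.8, 55.3 and 51.1 FPKM with it, so that the groups overlapped. The log2 fold change was -0.20 (95% interval -0.37 to -0.03), with an edgeR adjusted p of 0.0503, and CYBA was not called. With DESeq2 on the same genes the log2 fold change was -0.20 and the adjusted p 0.0481, and without control replicate 3 they were -0.28 and 0.0106 in edgeR, so the call for CYBA depends on the tool and on 1 library. In either case the change was small beside that of CYBB.

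CYBC1, the chaperone EROS, lies at chr17:82442589-82450829 (minus strand). Control libraries had 13.1, 11.7 and 11.4 FPKM of CYBC1, and hyperoside libraries 13.6, 14.9 and 13.9 FPKM. In FPKM the groups did not overlap, whereas in normalized CPM they did, with 48.4 CPM in control replicate 1 and 46.9 CPM in hyperoside replicate 1. The log2 fold change was 0.17 (95% interval -0.02 to 0.37, edgeR adjusted p = 0.131). Without control replicate 1 it was 0.26 with an adjusted p of 0.0102. Exons of CYBC1 share 57 bases with HEXDC on the opposite strand, which is 0.8% of its exonic bases.

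The balance of the membrane pair therefore differed between the groups. CYBB amounted to 1.59%, 2.32% and 1.46% of the CYBA level (FPKM over FPKM) without hyperoside, and to 12.6%, 13.4% and 12.6% with it. With the length of the longest coding transcript for both genes, the same shares were lower, at 0.865%, 1.27% and 0.794% without hyperoside and 6.85%, 7.30% and 6.88% with it, while their ratio between the groups does not depend on length. The log2 ratio of CYBB to CYBA went from -5.84 ± 0.358 to -2.96 ± 0.0506 (SD, n = 3 each), by 2.88 or 7.34-fold. The exact permutation test of this ratio (two-sided) gave p = 0.1, and 3 libraries against 3 allow none smaller. In both groups CYBB remained the minor transcript of the pair in each library. In bulk RNA a larger share of cells with CYBB and more CYBB per cell cannot be told apart.

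**Figure D2:**
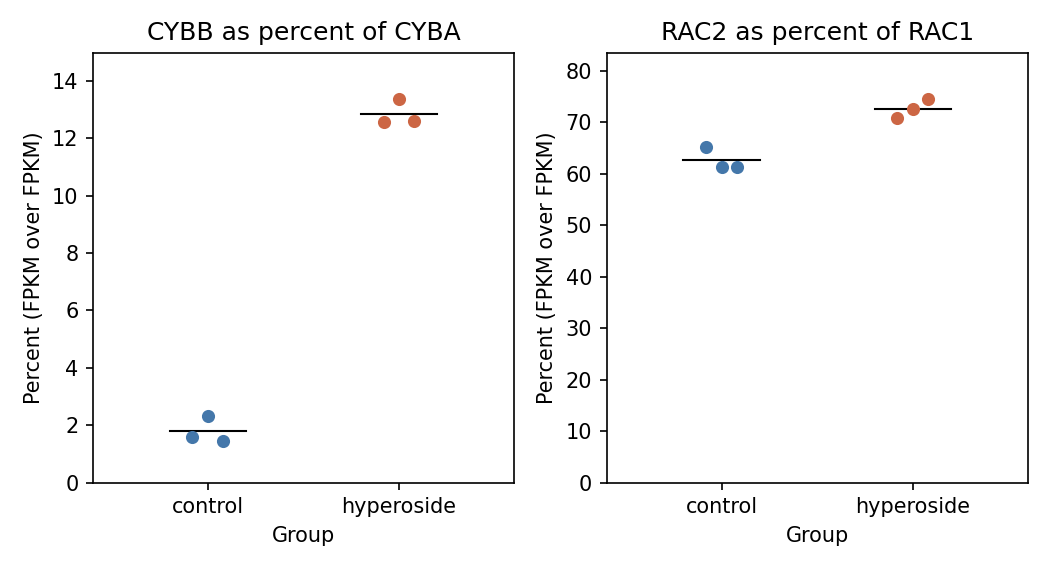
CYBB level as a percent of CYBA (left) and RAC2 level as a percent of RAC1 (right), FPKM over FPKM, for each of the 3 control and 3 hyperoside libraries, with a black line at the group mean. CYBB moves from 1.46% to 2.32% of CYBA in control libraries to between 12.6% and 13.4% in hyperoside libraries, and RAC2 from 61.3% to 65.3% of RAC1 to between 70.8% and 74.6%.

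The pattern of CYBB over the 6 libraries was set beside that of all tested genes. The measure was the Euclidean distance in log2 CPM after the mean of each gene was subtracted. A prior count of 2 was added before the log, which shrinks the differences of genes with few counts. The nearest 5 genes were ZNF648 (distance 0.27), FBN2 (0.33), LOC105374775 (0.37), LOC102724908 (0.51) and IMPG2 (0.52). Of these, LOC102724908 was abundant, with means of 359.8 CPM (control) and 2226 CPM (hyperoside), and the other 4 stayed under 4 CPM in both group means. Their log2 fold changes lay between 2.54 and 3.27, beside 2.64 for CYBB, and none of the 5 is another oxidase gene. The distance includes the size of the change, so fold changes near that of CYBB follow from the selection.

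NCF1 encodes p47-phox, the organizer that carries the cytosolic subunits to the membrane. The gene lies at chr7:74773962-74789315 (plus strand). Only 9, 1 and 10 counts fell on NCF1 in the control libraries and 30, 24 and 7 in the hyperoside libraries, and the groups overlapped. Summed over the group these were 20 counts (exact Poisson 95% interval 12.2 to 30.9) and 61 counts (46.7 to 78.4), where the intervals cover counting error only. The log2 fold change was 1.54 (95% interval 0.03 to 3.06) with an edgeR adjusted p of 0.0898, so no difference was called, and the interval allows anything from almost none to about that of CYBB. In each library NCF1 was at or under 1.18% of the CYBA level, and at or under 0.627% with the transcript lengths.

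The NCF1 level is uncertain in a way the other subunits are not. Near-identical copies of the gene, NCF1B and NCF1C, lie in the same chromosome region, and 75.6% of the 75-base stretches in the longest coding NCF1 transcript also occurred in their GENCODE 29 transcripts (60.7% in NCF1B and 54.8% in NCF1C). How reads that match several genes were counted is not given in the sources used here, and NCF1B and NCF1C were not analysed here. The level of NCF1 relative to the other subunits is therefore less certain than theirs. Of the other 6 members, only RAC1 shared any such stretch, with 14.0% also found in the pseudogene RAC1P2.

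NCF4, the gene of p40-phox, whose PX domain binds the phosphoinositide of phagosome membranes, lies at chr22:36860988-36878015 (plus strand). Its counts were 33, 33 and 39 in the control libraries and 121, 69 and 83 in the hyperoside libraries, and each hyperoside library was above each control library. Its level rose from 0.442 ± 0.0484 to 1.15 ± 0.344 FPKM (SD, n = 3 each), with a log2 fold change of 1.33 (95% interval 0.65 to 2.01, edgeR adjusted p = 0.00268). NCF4 nevertheless stayed under 3% of the CYBA level, at 2.90%, 1.57% and 2.06% in the hyperoside replicates, or 2.15%, 1.16% and 1.53% with the transcript lengths. Its exons share 27 bases with NCF4-AS1 on the opposite strand, which is 1.5% of its exonic bases.

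The Rac transcripts were the most abundant of the set. RAC1, at chr7:6374523-6403977 (plus strand), had 136.6, 142.7 and 138.8 FPKM in control libraries and 123.04, 119.6 and 127.03 FPKM in hyperoside libraries, without overlap. It fell by 0.23 on the log2 scale (95% interval -0.37 to -0.09, edgeR adjusted p = 0.00948), to 85.4% of the control mean in CPM. Without hyperoside replicate 1 the log2 fold change was -0.22 and the adjusted p 0.0526, so the call did not hold there. RAC2, at chr22:37225261-37244448 (minus strand), had 89.2, 87.5 and 85.1 FPKM in control libraries and 87.1, 86.8 and 94.7 FPKM in hyperoside libraries, with overlap. Its log2 fold change was -0.01 (95% interval -0.17 to 0.14, edgeR adjusted p = 0.899), and its sign turned with the scaling, to 0.03 with upper quartile normalization.

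RAC2 amounted to 65.3%, 61.3% and 61.3% of the RAC1 level without hyperoside and 70.8%, 72.6% and 74.6% with it. The difference of the log2 ratio was 0.21, or 1.16-fold, and the two-sided exact permutation p was again 0.1, its lower limit here. RAC3, the third member of the Rac family, which is best known from the nervous system, is no member of the set. Its levels were 56.4, 51.1 and 44.1 FPKM without hyperoside and 36.3, 43.4 and 40.6 FPKM with it, and it fell by 0.39 on the log2 scale (95% interval -0.61 to -0.16, edgeR adjusted p = 0.00623), a call that was lost without hyperoside replicate 1 (-0.32, adjusted p = 0.0516). Of the summed FPKM of RAC1, RAC2 and RAC3, RAC2 took 31.1% to 31.7% in control libraries and 34.8% to 36.1% in hyperoside libraries.

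Of the 7 subunit genes, 2 rose (CYBB and NCF4), 1 fell (RAC1) and 4 did not pass the test (CYBA, CYBC1, NCF1 and RAC2) at an adjusted p under 0.05. Over all tested genes, 22.1% were called higher and 23.2% were called lower, so 3 calls among 7 genes is close to the 45.3% called in either direction. CYBB and NCF4 also changed more than 2-fold. Of all tested genes, 6.43% passed both the adjusted p and the 2-fold threshold upward, and 3.76% passed both downward. The normalized CPM of the groups did not overlap for 3 of the 7 genes, against 54.4% of all tested genes. The median log2 fold change of the 7 was 0.17, and that of all tested genes was 0.00. The members differed in the size of their changes, with CYBB at 6.24-fold, NCF4 at 2.51-fold and RAC1 at 85.4% of its control level. As to which parts were present, transcripts of the membrane pair, the chaperone and both Rac genes were above 1 FPKM in each hyperoside library. NCF4 and NCF1 had the lowest levels among the members. NCF4 had 1.53, 0.867 and 1.05 FPKM in the hyperoside replicates, and NCF1 had 0.621, 0.493 and 0.145. CYBB was under 1 FPKM in control replicate 3 (0.781). The line at 1 FPKM serves as a description only.

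**Figure D3:**
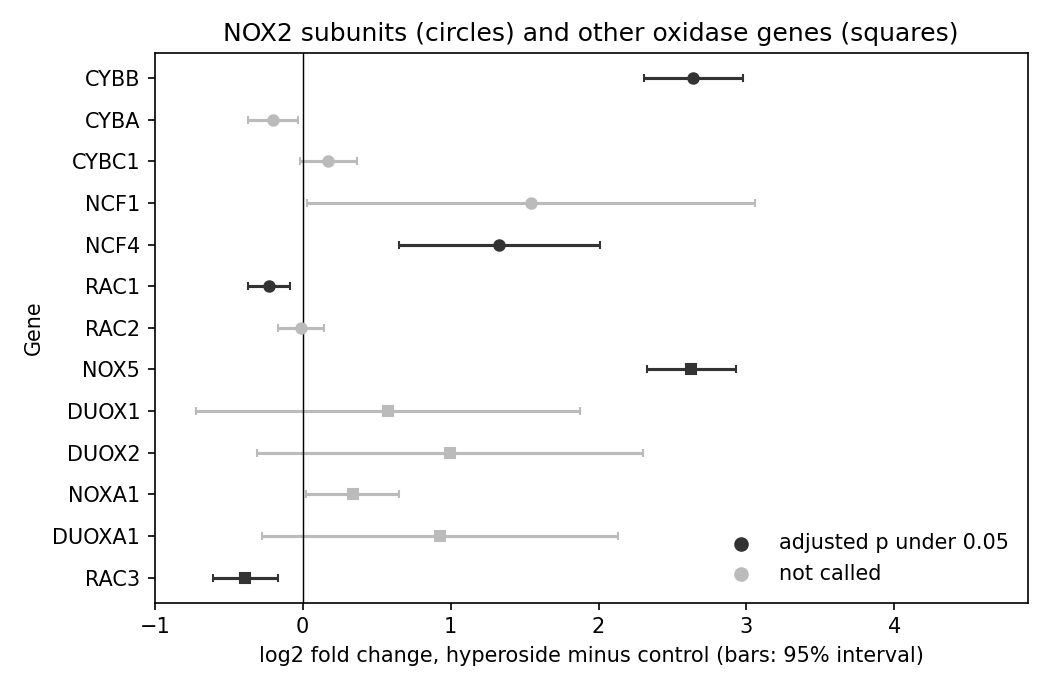
The log2 fold change (hyperoside minus control) from edgeR with its 95% interval for the 7 NOX2 subunits (circles) and for tested genes of other NOX enzymes and partners (squares), dark where the adjusted p was under 0.05. CYBB (2.64) and NOX5 (2.63) lie together at the right, NCF4 lies at 1.33, and RAC1 (-0.23) and RAC3 (-0.39) lie below 0.

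The other NADPH oxidases were examined to see which catalytic subunits besides CYBB the cells transcribed. NOX5, a calcium-activated oxidase that needs no cytosolic phox subunits, was the only other called one among NOX1, NOX4, NOX5, DUOX1 and DUOX2. NOX5 counts were 115, 130 and 153 in control libraries and 941, 867 and 732 in hyperoside libraries, a log2 fold change of 2.63 (95% interval 2.33 to 2.93, edgeR adjusted p = 2.69e-10). Its exons share 1096 bases with AC027088.1 and 193 with SPESP1 on the same strand, and how reads there were counted is not given in the sources used here. NOX4, which pairs with CYBA in many tissues, had 0 counts in all 6 libraries, each of which allows up to 3 counts, and NOX1 had 1 count in 1 library. DUOX1 and DUOX2 had 4 to 29 counts and were not called (edgeR adjusted p of 0.474 and 0.203). The partner genes NOXA1 (log2 fold change 0.34, edgeR adjusted p = 0.0724) and DUOXA1 (0.93, 0.199) were not called either, though NOXA1 was called in 5 of its 14 alternatives. In the deposited FPKM, CYBB was above NOX5 in each library, with 6.44 to 7.39 against 2.38 to 3.06 FPKM in the hyperoside group. This order depends on length, as the deposited values divide NOX5 counts by 8598 bases and CYBB counts by 4276. In counts, NOX5 was above CYBB in control replicate 3 (153 against 119) and below it in each other library. A transcript length was not tried for NOX5.

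Genes that act around the complex were taken from lists of 79 genes, of which 76 were in the table and 59 were tested, with 20 called higher and 14 lower, beside 22.1% and 23.2% of all tested genes. The median log2 fold change of these 59 was 0.09. Among 12 tested regulators of Rac, 5 rose and 2 fell. They include the Rac-binding inhibitor ARHGDIB (log2 fold change 0.78, edgeR adjusted p = 6.9e-07), the exchange factors DOCK2 (0.74, 1.65e-06) and PREX1 (0.42, 0.00173), and the GTPase-activating RACGAP1 of cell division (-0.48, 2.9e-05). Among 13 kinases that activate or prime the oxidase, 3 rose and 2 fell, with PRKCA at 0.96 (edgeR adjusted p = 7.9e-09), SYK at 0.70 (7.97e-06), PAK2 at 0.30 (0.00256) and PAK1 at -0.35 (0.0144). PAK1 was not called without control replicate 2 (adjusted p = 0.0641) or without hyperoside replicate 2 (0.0708).

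Of 8 tested genes that handle superoxide and its products or balance the charge it moves, 3 rose and 5 fell. The share of all tested genes called in either direction was 45.3%. The list was chosen with earlier results of these data known, so its count of calls is a description and not a test. The risers were the eosinophil peroxidase EPX (log2 fold change 2.22, edgeR adjusted p = 1.83e-08), the phagocyte proton channel HVCN1 (1.07, 9.1e-06), which offsets the charge carried by NOX2, and the extracellular dismutase SOD3 (1.42, 1.2e-04). The genes that fell, all by less than 0.35 on the log2 scale, were SOD1, SOD2, CAT, CLCN3 and PRDX6. CLCN3 was not called without control replicate 3, hyperoside replicate 2 or hyperoside replicate 3 (edgeR adjusted p of 0.0867, 0.0715 and 0.0549). Of 4 genes that supply NADPH, the fuel of the oxidase, IDH1 (-0.91, edgeR adjusted p = 5.38e-08) and ME1 (-0.59, 2.78e-04) fell, and PGD and NADK were not called.

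Of 13 transcription factors known for acting on CYBB, 10 were tested, and 5 rose and 1 fell, beside 22.1% and 23.2% of all tested genes. CEBPE, the C/EBP factor of late granulocyte maturation, had 36, 36 and 32 counts without hyperoside and 440, 457 and 531 with it, a log2 fold change of 3.73 (95% interval 3.34 to 4.12, edgeR adjusted p = 9.2e-11). SPI1, the gene of PU.1, had 10.9, 10.4 and 10.9 FPKM without hyperoside and 15.3, 14.3 and 15.9 FPKM with it, a log2 fold change of 0.45 (edgeR adjusted p = 4.48e-04). NFKB1 (1.04, 6.52e-07), the repressor CUX1 (0.53, 2.93e-05) and ELF1 (0.32, 0.00465) also rose, and CEBPB fell (-0.71, 7.31e-06). CEBPA, IRF1, IRF2 and RELA were not called, with log2 fold changes between -0.16 and 0.09. IRF8, which acts with PU.1 on CYBB in monocytes, had 1 count in 1 hyperoside library and 0 in the other 5, and HOXA9 and HOXA10 had at most 1 count.

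Of 11 receptors that trigger the burst in phagocytes, 6 were tested, and 3 rose and 1 fell, beside 22.1% and 23.2% of all tested genes. ITGB2 (log2 fold change 2.15, edgeR adjusted p = 5.44e-08) and ITGAM (0.83, 8.15e-06), the chains of the complement receptor CR3, and FPR1 (2.95, 5.43e-05), a formyl peptide receptor, rose. FCGR2A, an IgG receptor, fell (-0.64, 2.26e-06). FPR1 stayed low, at 60, 81 and 61 counts with hyperoside against 13, 6 and 6 without it. CD14 had at most 7 counts, TLR4 had 1 count in all and CLEC7A had 0 counts in all 6 libraries.

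**Figure D4:**
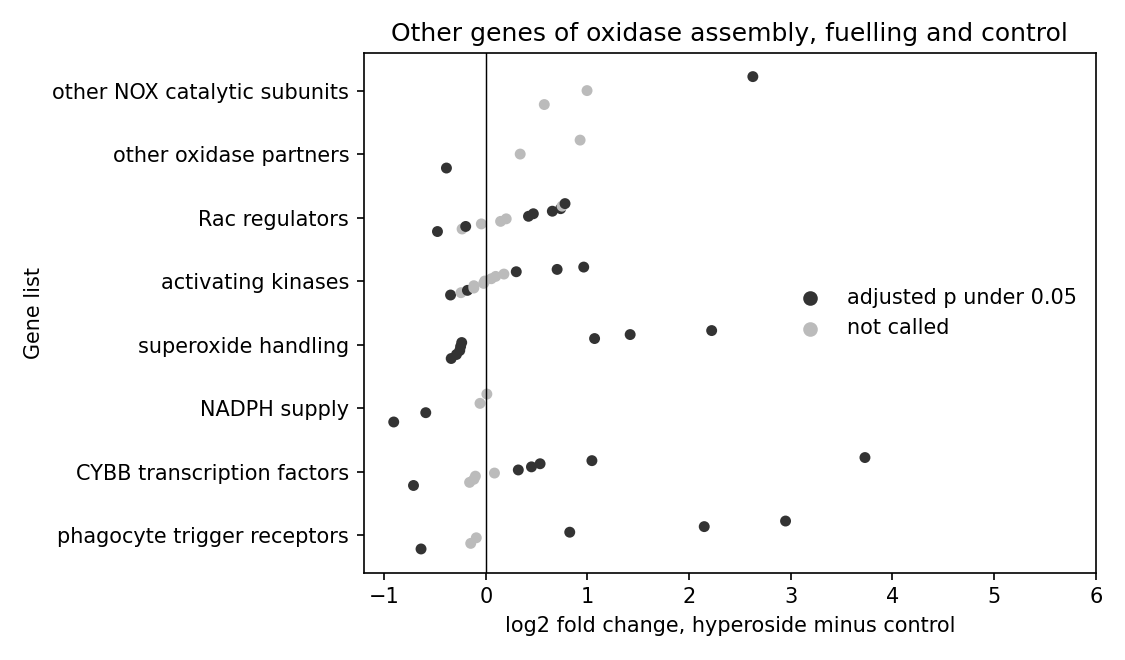
The log2 fold change (hyperoside minus control) of the tested genes in each list around the oxidase, one point per gene, dark where the edgeR adjusted p was under 0.05. CEBPE (3.73), FPR1 (2.95), NOX5 (2.63), EPX (2.22) and ITGB2 (2.15) lie farthest to the right, and IDH1 (-0.91) lies farthest to the left.

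Markers of other blood cells were measured beside these values. For comparison with each list, 22.1% of all tested genes were called higher and 23.2% lower. The monocyte list (CD14, CSF1R, FCGR1A, LYZ and CD68) summed to 196.5 to 202.8 CPM in control and 246.5 to 280.0 CPM in hyperoside libraries, and 3 of its 4 tested genes rose (CSF1R, LYZ and CD68). CSF1R was not called without control replicate 2 (edgeR adjusted p = 0.0632) or control replicate 3 (0.0532). The neutrophil list (CSF3R, ELANE, MPO, FCGR3B and CXCR2) summed to 3.67 to 5.12 and 4.25 to 6.65 CPM, and its 2 tested genes, CSF3R and FCGR3B, were not called (edgeR adjusted p of 0.121 and 0.979). The T cell list (CD3D, CD3E, CD3G and CD2) summed to 29.4 to 36.7 and 40.0 to 44.8 CPM, nearly all of it CD3D, and CD2 had at most 2 counts. Of its 3 tested genes, CD3D (log2 fold change 0.29, edgeR adjusted p = 0.0249) and CD3G (1.39, 0.0238) rose. Each lost its call with some single library left out, CD3D without control replicate 3 (adjusted p = 0.151), hyperoside replicate 1 (0.106) or hyperoside replicate 3 (0.0602), and CD3G without control replicate 2 (0.0883), hyperoside replicate 1 (0.102) or hyperoside replicate 2 (0.0735). The B cell list (MS4A1, CD79A and PAX5) summed to 0.085 to 0.341 and 0.083 to 0.354 CPM, and MS4A1 had 1 count in all. Of the erythroid list, 3 of 7 genes fell (HBG1, HBG2 and HBE1) and 2 rose (KLF1 and ALAS2). What part the monocyte, T cell and erythroid genes that moved have in the CYBB and NCF4 values was not tested.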

How the data were processed

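Trizol-extracted total RNA of K562 cells (3 control and 3 hyperoside libraries) was sequenced on an Illumina HiSeq instrument. Per the labels, the authors used fastp, HISAT2, HTSeq and hg38. Versions, annotation, strand setting and handling of multiply matching reads are not given in the sources used here. The authors deposited raw counts per gene and FPKM values, that is counts divided by gene length and library total. A single length per gene accounted for the FPKM values of 100% of genes with counts.

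The count test used edgeR 4.0.16 under R 4.3.3: filterByExpr (minimum count 10, minimum total 15), TMM normalization, and the quasi-likelihood test with condition as the only term, Benjamini-Hochberg adjusted over 15095 genes and called at an adjusted p under 0.05. Intervals are the fold change with its standard error and the test's degrees of freedom. The study's DESeq package was not used. DESeq2 1.42.0 and limma 3.58.1 served as alternatives, beside other normalizations and filters, a block on the replicate number, and fits that omit 1 library. Level ratios were compared with exact permutation tests (scipy 1.17.1). The steps were tested on simulated counts. Positions, exon overlaps and shared 75-base stretches came from GENCODE 29 (GRCh38) and the windows before the start from RefSeq (GRCh38.p14).

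The 7 members and the gene lists were chosen with earlier results of these data known. Named genes were all members, up to 4 called genes with the smallest adjusted p per list, all transcription factors and NOX catalytic subunits, and the 5 genes nearest to CYBB. SOD1, SOD2, CLCN3, PRDX6 and the genes given only as not called or near 0 outside these groups were named after their values were seen. NOX3, NCF1B and NCF1C were not analysed here, and some genes of the fixed lists are not reported here and were left out of the lists' counts and sums. The deposited annotation columns were not used here.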

Additional observations from a re-analysis of the deposited data

How the results depend on the processing

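CYBB and NCF4 kept their direction and their call in all 14 alternatives, with log2 fold changes of 1.94 to 2.87 for CYBB and 0.57 to 1.5 for NCF4. The lowest values came from limma-trend on log2(FPKM + 1), where the added 1 shrinks low genes by construction. The number of subunits called lower was 2 with DESeq2 and without a filter on low counts, and 0 to 2 with 1 library left out. CYBA was called with DESeq2 (-0.20) and without a filter (-0.19), and ranged from -0.28 to -0.12 with 1 library left out. CYBC1 was called in limma-trend on log2(FPKM + 1) (0.21) and on log2(FPKM + 0.1) (0.22), and ranged from 0.12 to 0.26 with 1 library left out. RAC1 ranged from -0.25 to -0.18 over all alternatives and from -0.25 to -0.21 with 1 library left out, and it lost its call without hyperoside replicate 1. RAC2 turned to 0.0279 with upper quartile normalization, to 0.0356 and 0.0360 in limma-trend on log2(FPKM + 1) and log2(FPKM + 0.1), and to 0.0009 with a minimum of 1 CPM in 3 libraries, and ranged from -0.0497 to 0.0261 with 1 library left out. NCF1 was not called in any of its 13 alternatives, with log2 fold changes of 0.31 to 1.96, and had too few counts for the filter at 1 CPM. Both limma-trend fits called 9 of the listed surrounding genes lower in place of 14. The cause of the other shifts in calls was not tested. Of the 24 such genes named for the smallest adjusted p in their list, 22 kept direction and call in all alternatives. RAC3 lost its call without hyperoside replicate 1 and PAK1 in 4 alternatives. Of 21 other called genes that the text names, markers and the genes nearest to CYBB included, 16 kept direction and call, and SOD2, CLCN3, CSF1R, CD3D and CD3G lost the call in some alternative. Of 12 other genes not called, NOXA1 and RELA were called in some alternative, RELA only without control replicate 1. With 1 library left out, the log2 fold changes of CEBPA ranged from -0.5085 to 0.2090, those of NADK from -0.0371 to 0.0921 and those of FCGR3B from -0.3236 to 0.3060, so that their signs turned. The log2 ratio of CYBA to RAC2 in the control group turned from -0.57 to 0.14 with transcript lengths, an alternative chosen after seeing the data, as were the percentages of CYBA with these lengths. Same-numbered replicates did not deviate together (correlations of -0.08, -0.03 and -0.03). With 3 libraries per group this cannot show whether the libraries were prepared in pairs, which the labels do not state. With a replicate block, CYBB had a log2 fold change of 2.67, FCGR3B turned to -0.0254, and 2 members were called higher and 1 lower. For NCF1, whose summed counts differ beyond counting error, the spread between libraries leaves a wide interval.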
